A study of Mus musculus with 79 samples.

Results

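The red cell genes Slc4a1, Alas2, Fech, Slc25a37, Bpgm, Ube2o, Ahsp and Klf1 were followed in whole lung of the mouse. They are 8 of the 31350 genes and transcripts on the array, all 8 were measured and tested, and no filter on low values was applied. They were picked by name, with the smoke response in these lungs already known, and a gene with several array entries is represented by its brightest one on average. RNA of the right lung of 79 mice was hybridized to Affymetrix moGene2.1 arrays, 1 array per mouse. The values are log2 intensities, so that a difference of 1 stands for a doubling. Mice were wild type (WT) or βENaC, their littermates on a C57BL/6J background in which a transgene overexpresses Scnn1b, the beta subunit of the epithelial sodium channel, in airway epithelium. Both genotypes and both sexes, at an age of 5 to 7 weeks, breathed the smoke of 6 research cigarettes per day or, as sham controls, room air in the same chamber. Exposure lasted 1 day (20 smoke and 20 sham mice) or 5 days (19 smoke and 20 sham mice), and lungs were taken 4 hours after it ended. The 16 groups of genotype, exposure, sex and duration held 4 to 6 mice each. Mice of the 2 durations were separate animals, and the length of exposure cannot be told apart from the run in which it was given.

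Red blood cells are made in the bone marrow and, in the mouse, also in the spleen. The last nucleated precursors lose their nucleus and enter the blood as reticulocytes, which still hold messenger RNA and lose it as they mature. Whole lung tissue holds blood in its vessels, and some of these genes are also expressed by other cells. The 8 genes cover different steps. Slc4a1 encodes band 3, the chloride and bicarbonate exchanger of the red cell membrane. Alas2 is the erythroid form of 5-aminolevulinate synthase, the first enzyme of heme synthesis, and Fech is ferrochelatase, the last one, which places iron into the ring. Slc25a37 is mitoferrin 1, which imports that iron into mitochondria. Bpgm makes bisphosphoglycerate, which sets how firmly hemoglobin holds oxygen. Ube2o is a ubiquitin enzyme that clears ribosomes and other proteins from the reticulocyte, Ahsp is a chaperone of free alpha globin, and Klf1 is a transcription factor of nucleated red cell precursors that binds CACCC-type motifs in globin and other erythroid genes.

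The promoters are shown because Klf1 and GATA1 are the factors best known at such genes. The RefSeq promoter table (build GRCm38.p6) held 3 of the 8 genes. The 250 bases before the start of transcription are printed 5′ to 3′ on the plus strand, with capitals for each match to a GATA-type or a CACCC-type motif, both searched on both strands. GATA-type motifs were AGATAA and the variants with another first letter (TGATAA), with another last letter (AGATAG) and with both (TGATAG). The CACCC-type motif was CCNCNCCC, where N is any base.
Alas2, chrX:150547167-150547416: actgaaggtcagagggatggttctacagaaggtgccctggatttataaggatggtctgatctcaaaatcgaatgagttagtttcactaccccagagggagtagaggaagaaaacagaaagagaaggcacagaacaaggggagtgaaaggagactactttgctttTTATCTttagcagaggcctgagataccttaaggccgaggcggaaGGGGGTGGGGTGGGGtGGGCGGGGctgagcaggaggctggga
Bpgm, chr6:34476106-34476355: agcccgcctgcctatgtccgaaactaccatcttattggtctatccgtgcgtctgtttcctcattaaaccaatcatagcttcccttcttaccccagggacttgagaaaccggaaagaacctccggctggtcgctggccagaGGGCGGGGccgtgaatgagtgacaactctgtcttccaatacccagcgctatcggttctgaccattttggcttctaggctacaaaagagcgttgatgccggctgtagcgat
Klf1, chr8:84901732-84901981: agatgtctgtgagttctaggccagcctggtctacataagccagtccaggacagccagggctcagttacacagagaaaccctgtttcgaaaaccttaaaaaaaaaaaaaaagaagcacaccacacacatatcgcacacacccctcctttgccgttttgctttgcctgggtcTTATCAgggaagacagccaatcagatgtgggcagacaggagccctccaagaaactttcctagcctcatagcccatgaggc
The Alas2 promoter held a GATA-type match 86 to 81 bases before the start (TTATCT on the printed strand) and 4 CACCC-type matches, some overlapping, between 42 and 19 bases before it. The Bpgm promoter held 1 CACCC-type match, 110 to 103 bases before the start. The Klf1 promoter held 1 GATA-type match (TTATCA), 80 to 75 bases before the start. Of all 32851 promoters in the table, 26.5% held a GATA-type match in the same window, 45.9% a CACCC-type match and 8.19% both. These are matches of letters, and binding was not measured.

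The arrays were alike in overall signal, with medians between 4.44 and 4.55 and no pair of arrays correlating below 0.965 across all genes. Scnn1b lay between 11.5 and 11.9 in the 39 βENaC mice and between 8.42 and 9.47 in the 40 WT mice, without overlap. In the labels of 13 WT smoke mice the source entry names the other genotype, while title and genotype entry both say WT, as did their Scnn1b level. Lung epithelial markers were bright, with means of 13.2 for Scgb1a1, 12.7 for Sftpc and 11.9 for Ager. In bulk tissue, fewer or more cells of a type cannot be told apart from less or more RNA per cell.

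After 5 days, 7 of the 8 genes were higher in smoke than in sham lungs by the thresholds used throughout (adjusted p below 0.05 and a fold above 1.3), where 0.577% of all genes were called higher with smoke. Klf1 was the exception. The genes were chosen on this very contrast, so these values are a description and carry no test. Slc4a1 ran from 4.62 through a median of 7.06 to 8.03 in the 19 smoke mice, and from 3.57 through 5.08 to 6.44 in the 20 sham mice. The smoke minus sham difference, with genotype and sex in the model, was 1.89 ± 0.20 (log2, SE), a 3.72-fold higher level, and 16 of 19 smoke mice lay above the highest sham mouse. A single smoke mouse, a WT female at 4.62, lay below the sham median. Among the 8 genes, band 3 had the widest smoke difference.

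**Figure D1:**
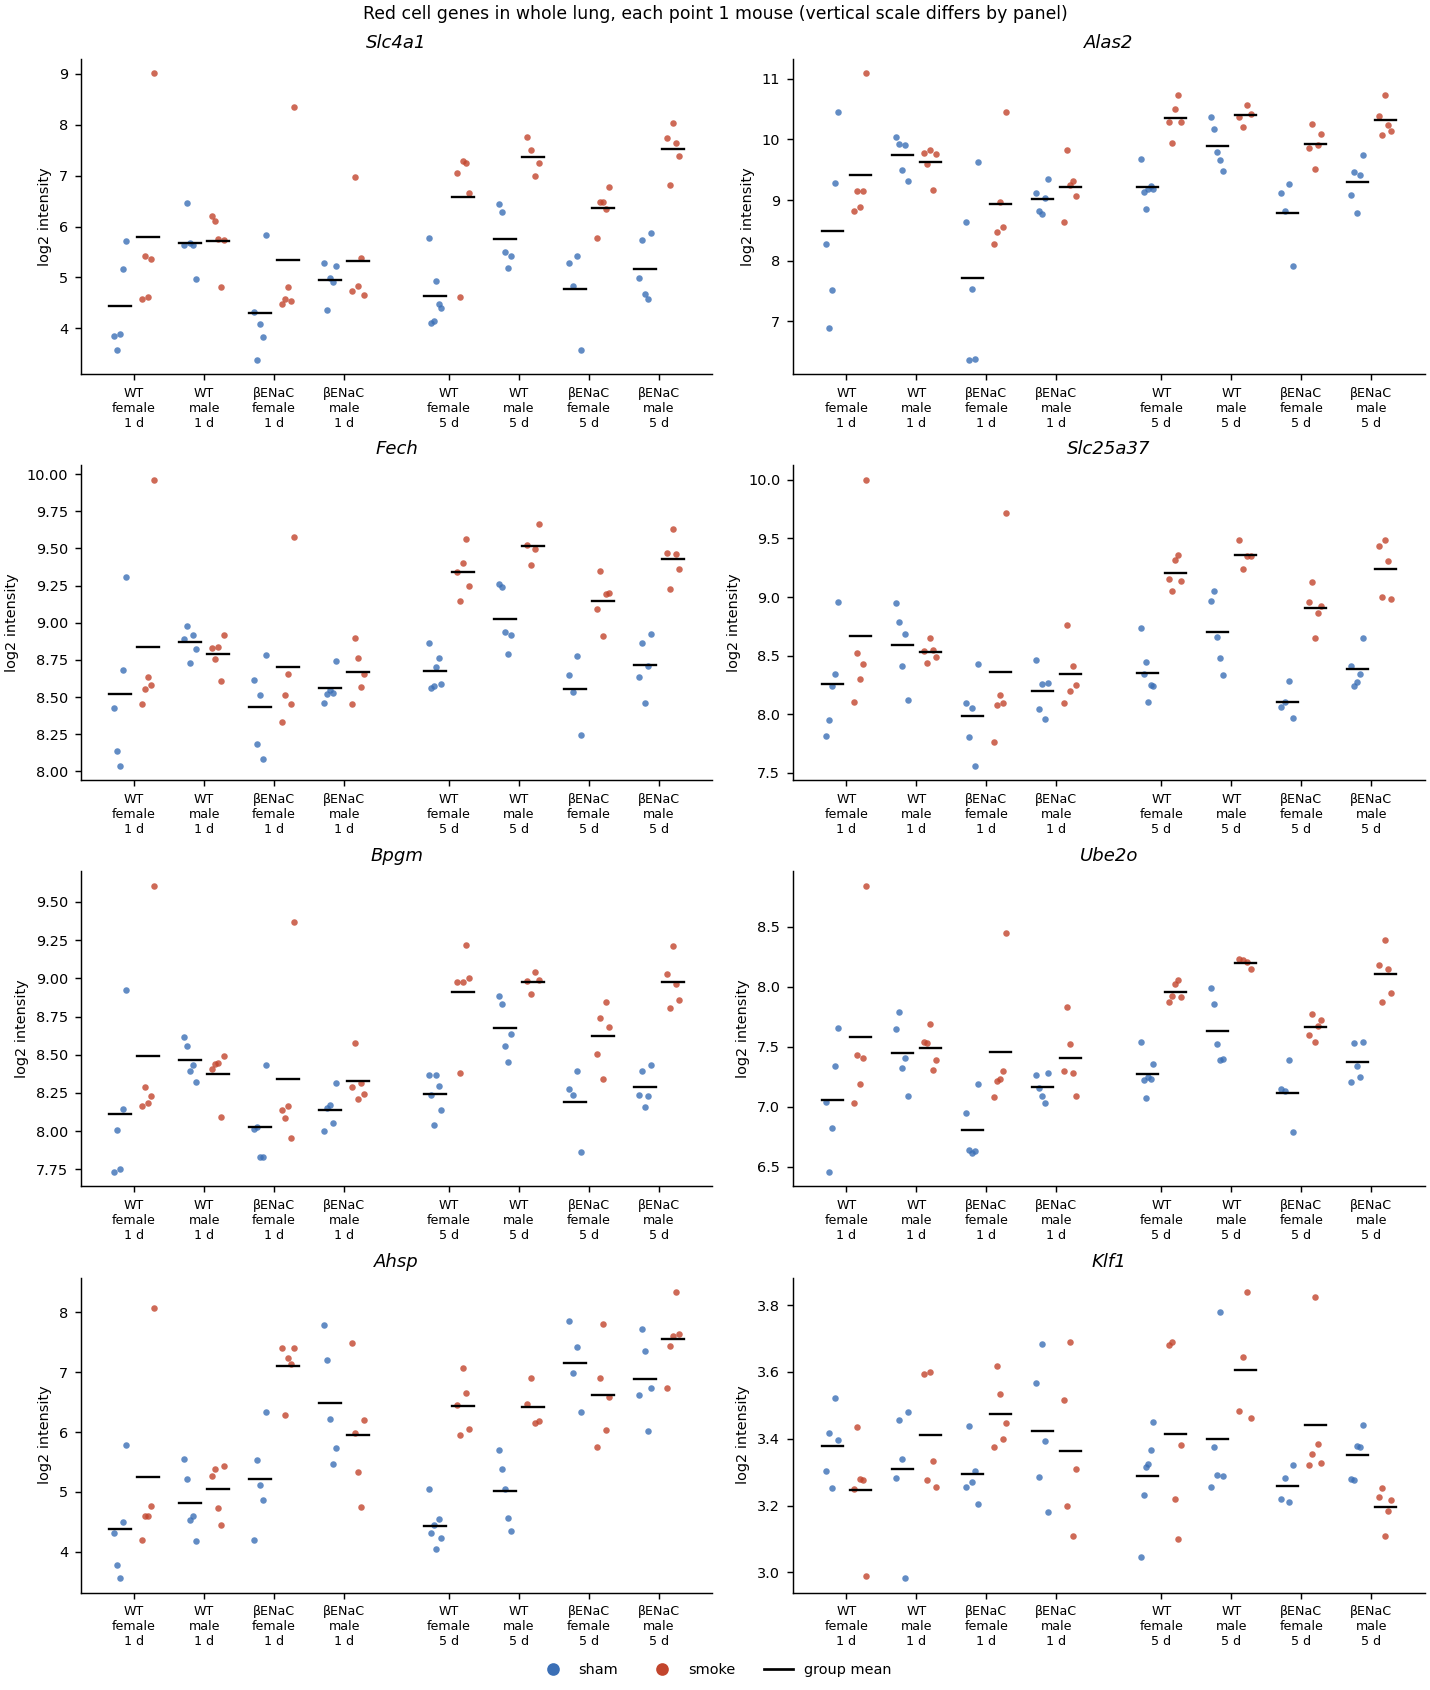
Log2 intensity (vertical axis, scale differs by panel) of the 8 red cell genes in each of 79 mice, by genotype, sex and duration (1 d, 1 day; 5 d, 5 days); points are mice, blue sham and red smoke, and bars are group means. At 5 days the smoke groups of Slc4a1 had means from 6.37 to 7.52 and the sham groups from 4.64 to 5.76, and in the female 1-day groups single mice stood far above the rest.

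The heme and iron genes had narrower ranges and smaller differences than band 3. Alas2 ran from 9.51 through 10.2 to 10.7 with smoke and from 7.91 through 9.25 to 10.4 in sham mice, a difference of 0.96 ± 0.11 (1.95-fold). Its groups overlapped, with 7 of 19 smoke mice above every sham mouse, yet all 19 lay above the mean of the sham group of their own genotype and sex. Fech ran from 8.91 through 9.36 to 9.66 against 8.25, 8.73 and 9.26, a difference of 0.62 ± 0.05 (1.54-fold), with 12 of 19 smoke mice above the highest sham mouse. Slc25a37 ran from 8.65 through 9.15 to 9.49 against 7.97, 8.34 and 9.05, and differed by 0.80 ± 0.06 (1.74-fold), again with 12 of 19 above the sham range. For both genes all 19 smoke mice exceeded the mean of their own sham group.

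The genes of the red cell interior followed. Bpgm ranged from 8.34 to 9.22 with smoke (median 8.96) and from 7.86 to 8.89 in sham mice (median 8.33), and was 0.54 ± 0.06 higher (1.45-fold). Ube2o ranged from 7.54 to 8.39 (median 7.95) against 6.79 to 7.99 (median 7.35), and was 0.64 ± 0.05 higher (1.56-fold). Smoke mice above the sham range numbered 11 of 19 for Bpgm and 9 of 19 for Ube2o, and in both genes all 19 exceeded their own sham group mean. Ahsp spread more widely, from 5.76 through 6.65 to 8.34 with smoke and from 4.04 through 5.54 to 7.85 in sham mice. Its difference was 0.94 ± 0.22 (1.91-fold) and 1 of 19 smoke mice lay above the highest sham mouse. The genotypes, which are mixed in these ranges, are taken apart further on. Klf1 was dim, with a mean of 3.36 that ranks at the 29.2 percentile of all genes, and its smoke mice (3.10 to 3.84, median 3.35) and sham mice (3.05 to 3.78, median 3.30) overlapped over most of their ranges.

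By group, Slc4a1 at 5 days was highest in smoke-exposed males, at 7.52 ± 0.45 (SD, n = 5) in βENaC and 7.38 ± 0.32 (n = 4) in WT. Smoke-exposed females came next, at 6.57 ± 1.12 (n = 5) in WT and 6.37 ± 0.37 (n = 5) in βENaC. Sham males had 5.76 ± 0.56 in WT and 5.17 ± 0.60 in βENaC (n = 5 each). Sham females were lowest, at 4.78 ± 0.84 (n = 4) in βENaC and 4.64 ± 0.63 (n = 6) in WT. Of the 7 steps in this order only the one between smoke-exposed βENaC females and sham WT males was larger than the SD of both neighbours.

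After 1 day the differences had the same sign and were smaller. None of the 8 genes passed both thresholds in limma (4 had an unadjusted p below 0.05, and 3 by an ordinary linear model, with none past both thresholds there either), where 0.485% of all genes were called higher with smoke. With the replicate number as a block within each sex, a choice made after the values were seen, 2 of the 8 passed both, Slc4a1 and Alas2. Replicate numbers do not pair mice by any label, and the genes were chosen with the smoke response known. All these counts are therefore a description and no test. Slc4a1 ran from 4.47 through 5.09 to 9.01 in 20 smoke mice and from 3.38 through 4.98 to 6.46 in 20 sham mice, a difference of 0.71 ± 0.32 (1.63-fold) that mixed wide spread with medians close to each other. Alas2 differed by 0.56 ± 0.26, Ahsp by 0.61 ± 0.30 and Ube2o by 0.36 ± 0.12. Slc25a37, Bpgm, Fech and Klf1 differed by 0.22 ± 0.14, 0.20 ± 0.11, 0.15 ± 0.11 and 0.02 ± 0.05. The median of the 8 smoke differences was 0.29 at 1 day and 0.72 at 5 days, beside medians over all genes of 0.01 and 0.00. As a further description, the 5-day difference exceeded the 1-day difference by 1.19 ± 0.39 in Slc4a1, 0.58 ± 0.15 in Slc25a37 and 0.47 ± 0.12 in Fech, and by 0.27 to 0.40 in Bpgm, Ube2o, Ahsp and Alas2.

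**Figure D2:**
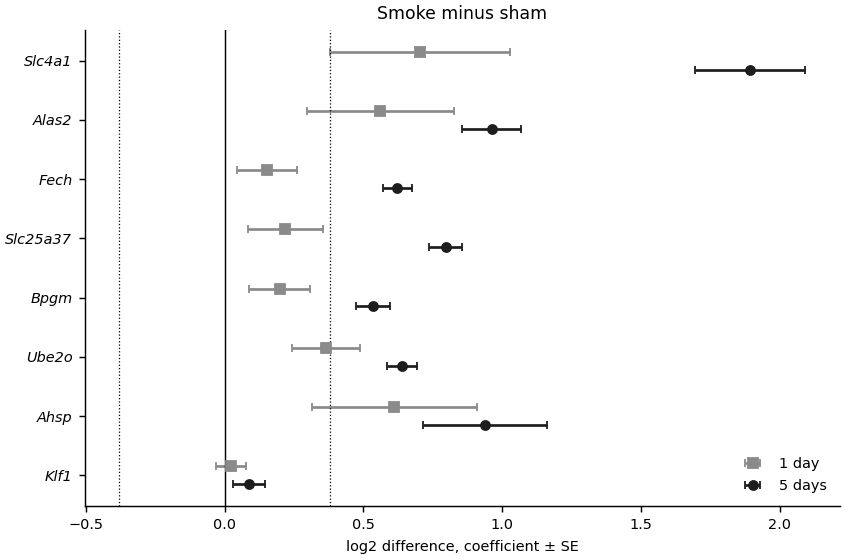
Smoke minus sham difference (horizontal axis, log2, coefficient ± SE of the model with genotype, exposure and sex) of the 8 genes after 1 day (grey squares) and 5 days (black circles); dotted lines mark a 1.3-fold difference. Every gene had its larger difference at 5 days, from 0.09 for Klf1 to 1.89 for Slc4a1.

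Within the 1-day mice, 4 females stood apart. In each of the 4 female 1-day groups (both genotypes, smoke and sham) the mouse titled replicate 5 had the highest value of 7 of the 8 genes, Klf1 being the exception. Slc4a1 reached 9.01 in the WT smoke mouse and 8.34 in the βENaC smoke mouse, with the next mouse of each group at 5.41 and 4.81. In the sham mice with this number it was 5.71 in WT and 5.83 in βENaC. Alas2 was 11.1, 10.5, 10.5 and 9.63 in the same order. Averaged over the 6 genes other than Ahsp and Klf1, these mice lay 1.62, 1.46, 1.02 and 0.84 above their group means. In the 1-day males the mouse numbered 5 was the highest in 0 to 2 of 4 groups, depending on the gene.

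Of the further lists, the globins and the genes of red cell maturation lay beyond the other 36 1-day mice in all 4. The mean of the globin list lay 0.63 to 0.88 above its group mean (others -0.62 to 0.34). The platelet markers lay 0.19 to 0.49 above (others -0.50 to 0.30), with the βENaC sham mouse inside the others' range. The dividing cell markers lay 0.16 to 0.74 above (others -0.43 to 0.41), with both βENaC mice inside it. The 6 B cell markers lay 0.46, 0.91 and 1.63 below in 3 of these mice and 0.39 above in the βENaC sham mouse (others -0.37 to 0.50). Neutrophil, immature neutrophil, monocyte and lung epithelial markers stayed within the range of the other mice in all 4. What set these mice apart was not tested. Without them, a choice made after the values were seen, the 1-day smoke difference was 0.46 ± 0.18 for Slc4a1, 0.54 ± 0.19 for Alas2, 0.27 ± 0.07 for Ube2o and 0.49 ± 0.26 for Ahsp, and the median over the 8 genes was 0.20.

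Some further red cell genes were also called for smoke, while most of those looked at were not. Their lists were chosen with earlier results of these data known, so these counts are a description and no test. Of 60 further genes in 6 lists, 52 had an entry with that symbol, and Hba-a1, Hbb-b1, Hbb-bs, Hbb-y, Ppox, Tmod1, Nfe2 and Prdx2 had none. At 5 days 11 of the 52 were called higher with smoke and none lower (limma; 29 of the 52 had an unadjusted p below 0.05 in either direction, and an ordinary linear model also called 11), where 0.577% of all genes were called higher and 0.577% lower. Their median difference was 0.06. Some genes not called were dim, so that a missing difference says little there. Rhd, Rhag and Hba-x had means of 2.84, 3.12 and 3.15, and Tfr2 and Car1 lay at 2.74 and 3.37 in 5-day WT mice. At 1 day 1 of 52 was called higher, Blvrb (biliverdin reductase B), at 0.44 ± 0.05, where 0.485% of all genes were. Within groups Blvrb followed the mean of the 8 genes weakly, with an r of 0.23 in the comparison described further on.

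Genes of the red cell membrane and its skeleton made up 5 of the 11 (of 14 measured). Among them Epb41 (protein 4.1), Epb42 (protein 4.2) and Sptb (beta spectrin) differed by 0.47 ± 0.05, 0.46 ± 0.07 and 0.44 ± 0.10. Xk and Gypc were at -0.08 and -0.07. Of the 5 globins measured 2 were called, the adult beta globins Hbb-bt at 0.97 ± 0.12 and Hbb-b2 at 0.66 ± 0.09. Globin copies are nearly identical, and signal may be shared between them. The alpha globin Hba-a2 differed by 0.24 ± 0.04, under the 1.3-fold threshold, with all mice between 12.0 and 12.8. The embryonic globins Hba-x and Hbb-bh1 were at -0.03 and -0.06, and both were dim, with means of 3.15 and 3.40.

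Among 15 genes of red cell maturation and cytosol, 4 were called. Fam46c, a poly(A) polymerase gene, differed by 0.69 ± 0.07, Trim10 by 0.58 ± 0.09 and Blvrb by 0.41 ± 0.05. Epor, the erythropoietin receptor of early precursors, was at -0.21 ± 0.07 and Car1 at -0.08. None of 6 other heme synthesis enzymes was called (Alas1, the housekeeping form of the first enzyme, at 0.21 ± 0.03, and Uros at -0.06). None of 7 iron supply genes was called, though 3 passed limma's adjusted p, counted in either direction. Their differences were positive in 5 of 7, with a median of 0.02, and negative in Steap3 (-0.18 ± 0.06) and Tfr2 (-0.02). Of 5 erythroid transcription factors none was called (Bcl11a at -0.31 ± 0.14 and Lmo2 at -0.19 ± 0.04), and 2 were positive.

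**Figure D3:**
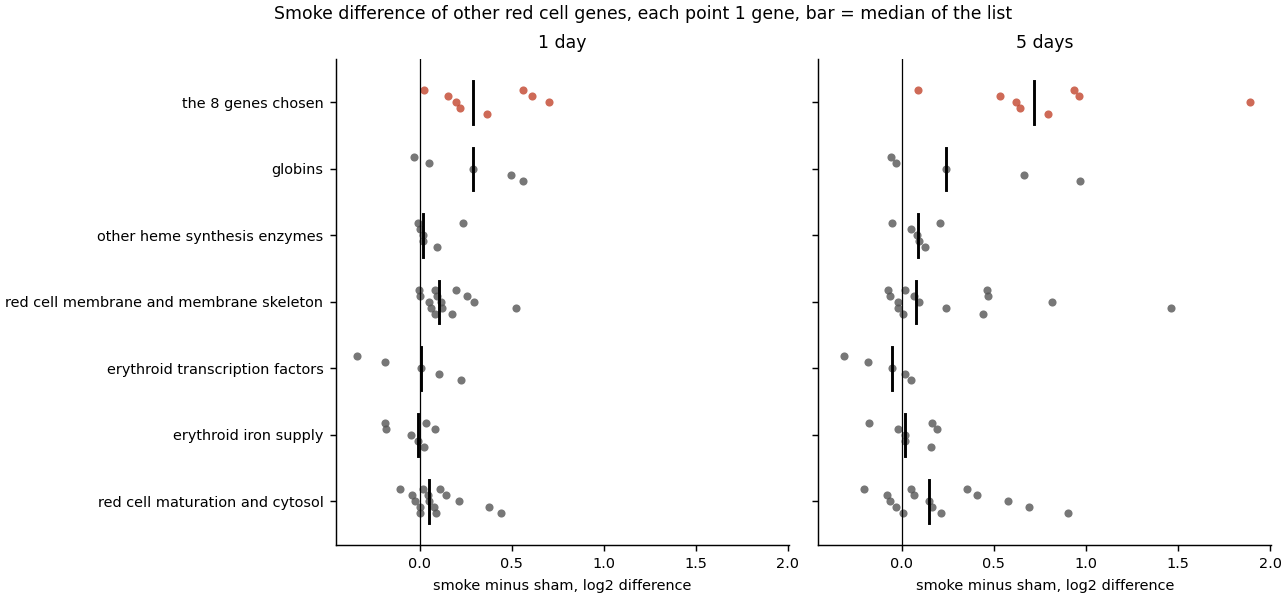
Smoke minus sham difference (horizontal axis, log2) of the 8 genes (red) and of 52 other red cell genes in 6 lists (grey), after 1 day (left) and 5 days (right); each point is 1 gene and each bar the median of its list. At 5 days the membrane, globin and maturation lists had single genes at 0.41 or more while most other genes of the lists lay near 0.

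Markers of other blood and lung cells at 5 days are given beside these values. Of 12 platelet markers none passed both thresholds for smoke in limma (2 had an unadjusted p below 0.05, and an ordinary linear model called none), and their mean level was 5.20 to 5.96 with smoke and 5.19 to 6.08 in sham mice. Of 5 monocyte markers 2 were called lower with smoke, Ccr2 at -0.51 and Cx3cr1 at -0.49, where 0.577% of all genes were. The mean level of the monocyte list was 6.80 to 7.88 with smoke and 7.63 to 8.24 in sham mice. Of 6 endothelial markers none passed both thresholds in limma, while 4 passed the adjusted p. Their median smoke difference was -0.13, and 1 was positive. No B cell, neutrophil, dividing cell, T cell, immature neutrophil or lung epithelial marker passed the adjusted p. The medians of these lists were -0.28, -0.21, -0.16, -0.15, -0.01 and -0.003 in that order. The part of all these cells in the smoke differences was not tested.

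Genotype split Ahsp from the rest. After 5 days Ahsp ran from 5.76 through 6.99 to 8.34 in 19 βENaC mice and from 4.04 through 5.54 to 7.07 in 20 WT mice. All 19 βENaC mice lay above the WT median and 9 above every WT mouse. The βENaC minus WT difference, with exposure and sex in the model, was 1.47 ± 0.22 (limma, adjusted p = 1.15e-05). After 1 day Ahsp ran from 4.20 through 6.21 to 7.78 in βENaC and from 3.56 through 4.59 to 8.07 in WT (20 mice each), with 19 of 20 βENaC mice above the WT median. Here the difference was 1.31 ± 0.30 (limma, adjusted p = 0.00346). Without the 4 females numbered 5 it was 1.46. They were singled out for high values of these genes, Ahsp included, so that value is a description only. Of the 8 genes, Ahsp alone was called higher in βENaC, at both durations, where 1.13% of all genes at 1 day and 1.87% at 5 days were.

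The other genes leaned the other way. At 5 days Alas2 was lower in βENaC by -0.39 ± 0.11 (limma, adjusted p = 0.0148) and was the 1 gene called lower, where 0.651% of all genes were. Slc25a37 (-0.25 ± 0.06, adjusted p = 0.00496), Ube2o (-0.21 ± 0.05, adjusted p = 0.00881), Fech (-0.18 ± 0.05, adjusted p = 0.0193) and Bpgm (-0.19 ± 0.06, adjusted p = 0.0457) passed limma's adjusted p but stayed under 1.3-fold. By adjusted p alone, 1 of 8 genes was thus higher and 5 of 8 lower in βENaC, beside 4.85% and 5.33% of all genes. An ordinary linear model had 5 of 8 past the adjusted p in either direction. The lower genes vary together within groups, as described further on, and are not separate events. Slc4a1 (-0.14 ± 0.20, limma adjusted p = 0.749) and Klf1 (-0.11 ± 0.06, adjusted p = 0.299) passed neither threshold. In a fit over all 79 mice the adjusted p of Alas2 was 0.274 and those of the other 4 lower genes 0.149 to 0.215, while Ahsp stayed past both thresholds. The Alas2 difference also fell under 1.3-fold when any of 10 mice was left out, down to -0.32 without 1 sham βENaC female.

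At 1 day the same 6 genes other than Ahsp and Klf1 had negative differences, from -0.15 for Bpgm to -0.59 ± 0.26 for Alas2 (limma, adjusted p = 0.219), and none passed the adjusted p. The genotype difference was not shown to depend on duration in any of the 8 genes: limma's genotype by duration term had an adjusted p below 0.05 in none (none at an unadjusted p below 0.05, none by an ordinary linear model, lowest adjusted p = 0.819), as in 0% of all genes. In the 6 further lists, 3 of 52 genes were called lower in βENaC at 5 days, where 0.651% of all genes were. Among the 3 were the globins Hbb-b2 at -0.40 (limma, adjusted p = 0.00339) and Hbb-bt at -0.38 (adjusted p = 0.0339).

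**Figure D4:**
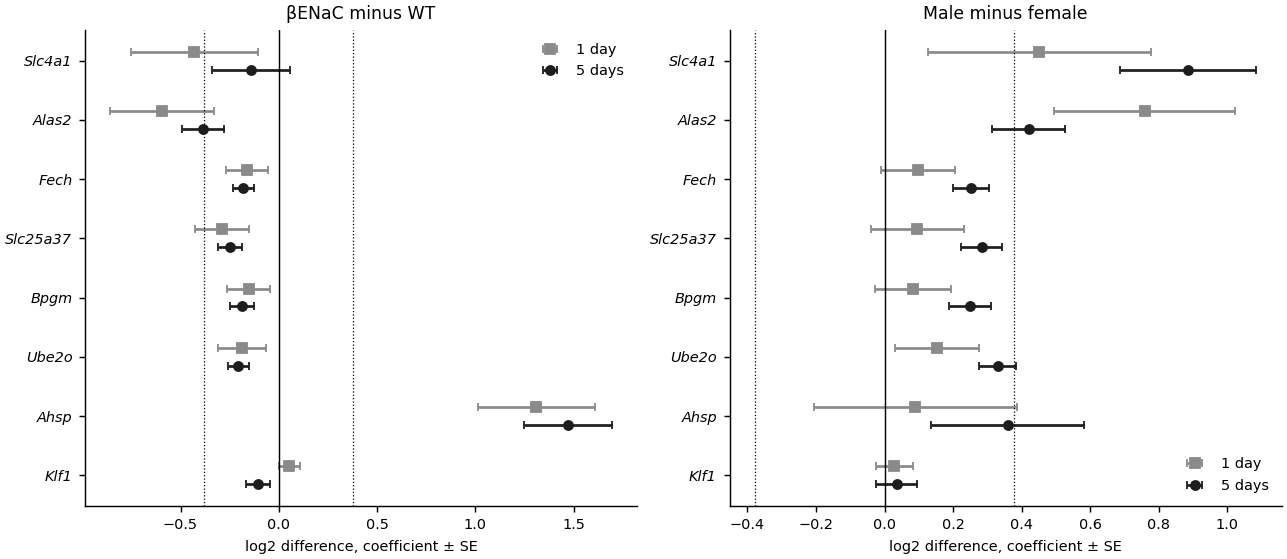
βENaC minus WT (left) and male minus female (right) differences (horizontal axes, log2, coefficient ± SE) of the 8 genes after 1 day (grey squares) and 5 days (black circles); dotted lines mark a 1.3-fold difference. Ahsp was 1.31 and 1.47 higher in βENaC, and at 5 days Slc4a1 was 0.89 higher in males.

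Among cell type markers at 1 day, 3 of 6 dividing cell genes were called higher in βENaC, where 1.13% of all genes were. The mean level of the list was 4.34 to 5.85 in βENaC and 4.32 to 5.48 in WT. At 5 days none was called in limma, with 5 of 6 at an unadjusted p below 0.05, and none by an ordinary linear model. Of all genes 1.87% were called higher in βENaC at 5 days. Of 5 immature neutrophil markers Ltf was called higher in βENaC at both durations. Its difference was 0.87 after 1 day, with a limma adjusted p of 1.71e-06, and 0.44 after 5 days, with one of 0.0132. Of 12 platelet markers 1 was called lower at 1 day, Ppbp at -0.51 (limma, adjusted p = 0.0345), where 0.418% of all genes were. The part of these cells in the genotype differences was not tested.

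At 5 days Ahsp also had the most uneven smoke difference between genotypes of the 8 genes. In WT lungs it ran from 5.96 through 6.44 to 7.07 in 9 smoke mice and from 4.04 through 4.54 to 5.69 in 11 sham mice, without overlap. In βENaC lungs it ran from 5.76 through 7.17 to 8.34 in 10 smoke mice and from 6.02 through 6.99 to 7.85 in 9 sham mice, and the sham range lay within the smoke range. The exposure by genotype term was -1.66 ± 0.37, with an unadjusted p of 6.65e-05, and did not pass the adjustment over all genes (limma, adjusted p = 0.695). The order of the groups was smoke βENaC males at 7.55 ± 0.57 (SD, n = 5), sham βENaC females at 7.15 ± 0.65 (n = 4), sham βENaC males at 6.89 ± 0.66 (n = 5) and smoke βENaC females at 6.62 ± 0.80 (n = 5). Smoke WT females at 6.44 ± 0.45 (n = 5) and smoke WT males at 6.43 ± 0.34 (n = 4) followed, then sham WT males at 5.01 ± 0.56 (n = 5) and sham WT females at 4.44 ± 0.35 (n = 6). In that order the step from smoke WT males to sham WT males, and the next one down to sham WT females, exceeded the SDs of both neighbours.

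No exposure by genotype term passed the adjusted p in the 8 genes at either duration. Unadjusted p-values below 0.05 numbered 0 of 8 at 1 day and 1 of 8, Ahsp, at 5 days, in limma and in an ordinary linear model alike. Over all genes 0.00638% passed at 1 day and 0% at 5 days. No exposure by sex term passed either, beside 0.00638% and 0% of all genes. At 1 day 2 of 8 had an unadjusted limma p below 0.05 (1 by an ordinary linear model) and at 5 days none in either. The larger of them was Ahsp, with a smoke difference lower in males by -1.52 ± 0.55 (limma, adjusted p = 0.659).

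The sexes also differed. At 5 days Slc4a1 ran from 4.57 through 6.44 to 8.03 in 19 males and from 3.57 through 5.60 to 7.28 in 20 females, and was 0.89 ± 0.20 higher in males (1.85-fold, limma adjusted p = 0.0190). It was the 1 gene of 8 past both thresholds, where 0.147% of all genes were called higher in males. Ube2o (0.33 ± 0.05, adjusted p = 0.000323), Fech (0.25 ± 0.05, adjusted p = 0.00864), Slc25a37 (0.28 ± 0.06, adjusted p = 0.0116) and Bpgm (0.25 ± 0.06, adjusted p = 0.0428) passed limma's adjusted p with less than 1.3-fold. By adjusted p alone, 5 of 8 genes were higher in males (4 by an ordinary linear model), beside 0.472% of all genes. These genes too vary together within groups and are not separate events. Alas2 (0.42 ± 0.11, limma adjusted p = 0.0541), Ahsp (0.36 ± 0.22, adjusted p = 0.574) and Klf1 (0.03 ± 0.06, adjusted p = 0.883) did not pass. In a fit over all 79 mice none of the 5 passed the adjusted p, which was 0.0889 to 0.256 there.

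At 1 day none of the 8 genes was called for sex in limma (1 had an unadjusted p below 0.05, as by an ordinary linear model, which also called none), where 0.651% of all genes were called higher in males. Alas2 ran from 8.63 through 9.33 to 10.03 in males and from 6.37 through 8.73 to 11.1 in females, a difference of 0.76 ± 0.26 (limma, adjusted p = 0.0596). Leaving out any 1 of the 4 females numbered 5 brought its adjusted p to between 0.0204 and 0.0282. Without all 4, again a choice made after the values were seen, Alas2 was higher in males by 1.20 (adjusted p = 6.76e-05) and Slc4a1 by 1.02 (adjusted p = 0.000229). Fech, Slc25a37, Bpgm and Ube2o then also passed limma's adjusted p, at 0.29 to 0.36 higher in males. The 4 mice were all females, singled out for high values of these same genes. Leaving them out, singly or together, raises the male minus female difference by construction. These p-values are therefore a description and no test of sex. No sex by duration term passed in the 8 genes (limma, lowest adjusted p = 0.703, none at an unadjusted p below 0.05, none by an ordinary linear model), beside 0.654% of all genes.

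Platelet markers moved with sex as well: 5 of 12 were called higher in males at 1 day and 3 of 12 at 5 days, beside 0.651% and 0.147% of all genes. The 3 at 5 days were Gp9 by 0.69 (limma, adjusted p = 0.000117), Ppbp by 0.68 (adjusted p = 3.21e-05) and Tubb1 by 0.62 (adjusted p = 0.000818). Their mean level at 5 days was 5.24 to 6.08 in males and 5.19 to 5.82 in females. The part of platelets in the sex differences was not tested.

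Within groups, 6 of the genes rose and fell together. After the mean of each of the 16 groups was removed, each gene was correlated over the 79 mice with the mean of the other 7, as a description of mice that share an array plate and a normalization. Pearson's r was 0.93 for Ube2o, 0.91 for Fech, 0.89 for Bpgm, 0.88 for Slc4a1, 0.86 for Slc25a37 and 0.81 for Alas2. It was 0.55 for Ahsp and -0.28 for Klf1. Among the 15 pairs of the 6 genes r was never under 0.78, with a median of 0.85. Over all genes on the array 0.265% had an r above 0.5 with the mean of the 8. Without the 4 females numbered 5, r was 0.63 to 0.82 for the 6 genes and 0.25 for Ahsp.

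**Figure D5:**
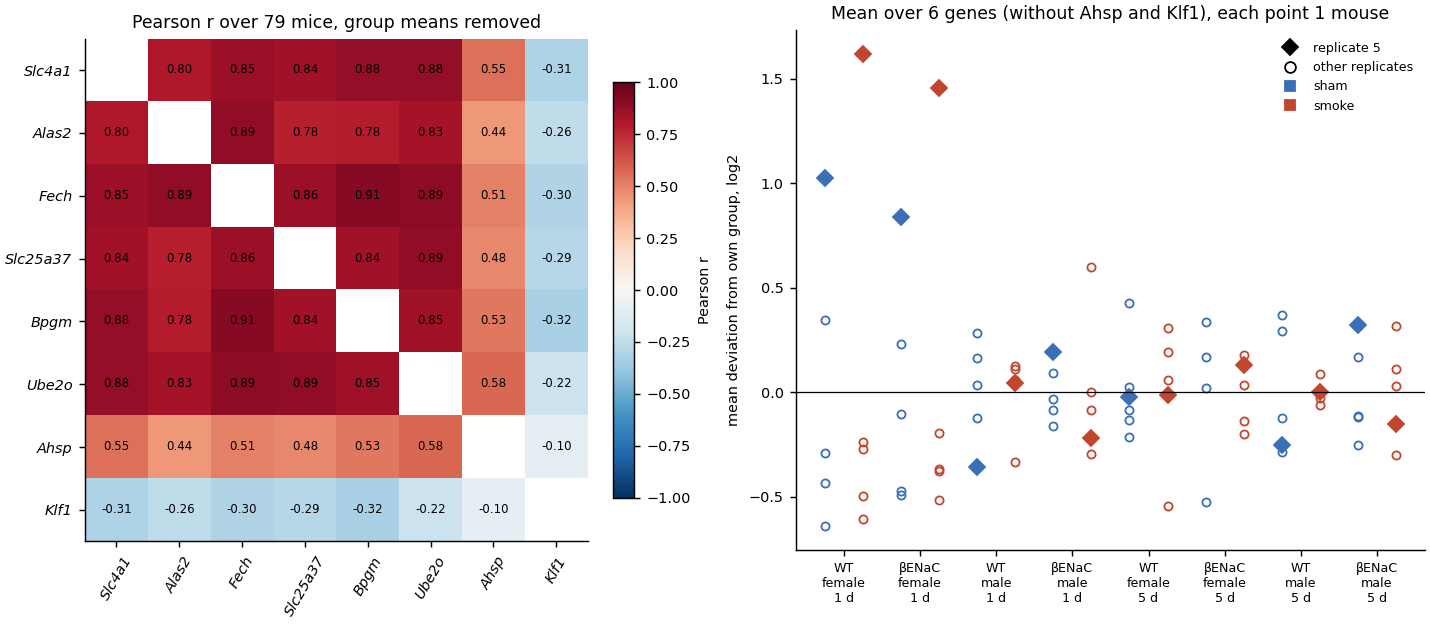
Left, Pearson r between the 8 genes over 79 mice after the 16 group means were removed (colour and printed value). Right, mean deviation from the own group (vertical axis, log2) over 6 genes without Ahsp and Klf1, each point 1 mouse, diamonds for mice titled replicate 5; the 4 such females at 1 day lie at 0.84 to 1.62 and every other mouse lies below that.

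Among the 10 other named genes most like the 8 in this sense were Tent5c (r = 0.93), Ube2l6 (0.90), Mkrn1 (0.89), Hbb-bt (0.89), Fam220a (0.85), Dcaf12 (0.83) and Isca1 (0.82). Tent5c is the current name of Fam46c, and it, Mkrn1 and Hbb-bt belong to the red cell lists. By list, the median r was 0.66 for globins, 0.60 for membrane genes (9 of 14 above 0.5) and 0.52 for maturation genes (8 of 15 above 0.5). It was 0.11 for the other heme enzymes, 0.05 for transcription factors and -0.03 for iron supply. Markers of platelets and of dividing cells both had a median of 0.41, and those of neutrophils, monocytes, B cells, T cells, endothelium and epithelium lay between -0.22 and 0.09.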

How the data were processed

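Gene expression was measured in right lung RNA of 79 mice with 1 Affymetrix moGene2.1 array per mouse. The authors deposited log2 intensities made by RMA (background subtraction adjusted for GC content and probe sequence, then quantile scaling between arrays, then median polish; Partek 6.6, with Affymetrix Expression Console 1.4 for quality control), after leaving out an array they held to be mislabelled. A comment in the study's code says that a mouse was relabelled WT from its Scnn1b level, so the Scnn1b check of the labels is not independent. No column was left out and no further normalization was applied. Groups came from the sample titles. Array entries were named through the paper's supplementary lists (2537 of 31350) or the RefSeq gene list (21057), and 9513 had no name. The genome build behind the values is not given in the sources used here.

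A linear model of genotype, exposure and sex was fitted to each duration with limma 3.58.1 in R 4.3.3 and moderated with eBayes. Benjamini-Hochberg adjustment ran over all 31350 entries. A gene was called where its adjusted p was below 0.05 and its coefficient exceeded 0.379 on the log2 scale (1.3-fold) in either direction. Interactions with exposure were tested in a fit that added both exposure terms, and those with duration in 1 fit over all mice. The p-values measure the spread between mice. The procedure was tested on simulated data.

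The 8 genes, the 6 red cell lists and the marker lists (platelets, neutrophils, immature neutrophils, B cells, T cells, monocytes, endothelium, lung epithelium, dividing cells) were chosen with earlier results of these data known. From the red cell lists the text names genes called for exposure (up to 4 per list), genotype or sex, up to 2 with a negative smoke coefficient and those without an entry, and from marker lists up to 3 genes. Sptb, Hba-a2 and Alas1 were added after their values were seen. The genes most like the 8 were the 10 with the highest r. Some genes that this rule names are not reported here. The alternatives were an ordinary linear model, 1 fit over all mice, median centring, quantile and cyclic loess normalization, omission of the 30% dimmest entries, a trend and robust prior, array weights, no fold threshold or 1.5-fold, the median over entries of a symbol, the replicate number as a block, omission of 4 mice that stand apart when clustered on smoke-response genes, and of each mouse in turn. Leaving out the 4 females numbered 5 and a block within each sex were added after the data were examined. Figures were drawn with matplotlib 3.10.9 (Python 3.11.15).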

Additional observations from a re-analysis of the deposited data

Results flagged for a closer look

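In each group of 4 to 6 mice the highest and lowest value of each of the 8 genes was compared with its nearest neighbour by Dixon's criterion at the 95% level. This marked 17 values in 128 pairs of gene and group, where chance marks about 1 in 20, and the genes vary together, so these are not 17 separate events. In the WT smoke female numbered 5 at 1 day, 7 genes were marked as high: Slc4a1 at 9.009, Alas2 at 11.088, Fech at 9.963, Slc25a37 at 10.001, Bpgm at 9.606, Ube2o at 8.843 and Ahsp at 8.070. In the βENaC smoke female numbered 5 at 1 day, 5 genes were marked as high: Slc4a1 at 8.342, Fech at 9.574, Slc25a37 at 9.720, Bpgm at 9.366 and Ube2o at 8.450. These mice made up 12 of the 17 values. Another 5 values belonged to 5 other mice. Slc4a1 was low, at 4.618, in WT smoke female 2 at 5 days, one of the mice that stand apart when clustered on smoke-response genes. Bpgm was low, at 8.091, in WT smoke male 4 at 1 day, and Ahsp was low, at 6.292, in βENaC smoke female 2 at 1 day. Klf1 was high, at 3.826, in βENaC smoke female 3 at 5 days and, at 3.780, in WT sham male 4 at 5 days.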

How the results depend on the processing

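The limits first: arrays give no read depth, groups hold 4 to 6 mice, and Klf1 and some genes of the red cell lists were dim. No called result changed direction under any alternative, while 2 small Ahsp terms at 1 day that were not called did. The sex difference of 0.09 ran from -0.0134 to 0.253 with single mice left out and was -0.0062 with array weights and -0.0134 without the 4 mice that stand apart, and the exposure by genotype term of 0.13 ran from -0.0582 to 0.4351 with single mice left out. Counts follow as members of the 8 called, and then as genes of the 52 in the red cell lists. The smoke counts at 5 days were 7 of 8, or 6 at 1.5-fold, and 11 of 52, or 6 at 1.5-fold and 21 with no fold threshold. The median smoke difference at 5 days, 0.72, was 0.7963 with the 30% dimmest entries left out, which removes Klf1. At 1 day, 0 of 8 for smoke became 2 with a block within each sex and 0 to 1 with single mice left out. The 52 then gave, against 1, 0 at 1.5-fold, 8 with no fold threshold, 3 with the block within each sex, 2 without the 4 females numbered 5 and 1 to 2 with single mice left out, the 2 without WT sham female 5.

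For genotype at 1 day, 1 of 8 became 2 with the block within each sex. At 5 days, 2 of 8 became 1 in 1 fit over all mice, at 1.5-fold, with cyclic loess and without the 4 mice that stand apart, 6 with no fold threshold, and 1 to 2 with single mice left out. The loss was Alas2, and it followed from leaving out βENaC sham female 4, βENaC sham male 1 or 3, βENaC smoke female 3, βENaC smoke male 2, WT sham female 1, WT sham male 1 or 2, or WT smoke female 3 or 4. Bpgm lost its adjusted p for genotype in 23 of 39 such fits and for sex in 19 of 39. Of the 52, 0 at 1 day became 2 in 1 fit over all mice, 1 with array weights, 2 with no fold threshold, 1 with the replicate block, 3 with the block within each sex, 4 without the 4 females numbered 5 and 0 to 1 with single mice left out; in limma 12 of the 52 had an unadjusted p below 0.05, and an ordinary linear model called none. At 5 days 3 became 0 in 1 fit over all mice and at 1.5-fold, 1 with cyclic loess and without the 4 mice that stand apart, 11 with no fold threshold, and 1 to 4 with single mice left out. The Ahsp genotype difference kept its call in every fit run, at 1.20 to 1.46 at 1 day and 1.41 to 1.49 at 5 days under the other alternatives, and at 1.21 to 1.47 and 1.37 to 1.56 with single mice left out.

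For sex at 1 day, 0 of 8 became 1 (Alas2) in 1 fit over all mice, with the dimmest entries left out, with array weights and with the replicate block, 2 without the 4 females numbered 5, and 0 to 1 with single mice left out, the 1 without any of those females or without WT smoke male 4. At 5 days 1 of 8 became 0 in 1 fit over all mice, 2 with the dimmest entries left out, with median centring and with array weights, 5 with no fold threshold, and 1 to 2 with single mice left out. The median likeness to the 8 genes was 0.9048 in 1-day mice alone, 0.763 in 5-day mice alone, 0.803 by Spearman rank and 0.6583 without the 4 females numbered 5. Replicate numbers in the titles do not pair mice by any label. Mice of the same number in different groups deviated together with a median r of 0.017 at 1 day (140 pairs, -0.276 to 0.465) and -0.009 at 5 days (126 pairs). With the replicate block the calls at 5 days were 7 of 8 for smoke, 2 for genotype and 1 for sex, as without it. Sex could not be fitted in the block within each sex.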
